A study of Mus musculus with 7 samples.

Results

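The G1 cyclins of the D and E families and the kinases they bind were examined in mouse LT-HSCs, long-term haematopoietic stem cells, which are the marrow cells that sustain blood formation over a lifetime. The set holds 8 genes, Ccnd1, Ccnd2, Ccnd3, Ccne1, Ccne2, Cdk2, Cdk4 and Cdk6, chosen by symbol among the 54347 gene rows of the deposited table. RNA sequencing was done on 7 libraries, each from 3000 to 5000 sorted cells of 1 female mouse. 4 mice were Emcn+/+ (WT) and 3 were Emcn-/- (KO), littermates of the line C57BL/6N-EMCN em1(IMPC)Wtsi /WtsiH. The Emcn product, endomucin, is a mucin-like glycoprotein found on the surface of cells. Libraries are named by genotype and mouse number, wt_284, wt_290, wt_310, wt_312, ko_306, ko_314 and ko_320, and values are given in this order. Cells were sorted after depletion of, and staining for, lineage markers. The labels give no age, litter or sort day, and no treatment. As the series title names endomucin a mark of quiescence, the comparison asks how genes that drive entry into the cell cycle stand in stem cells without it.

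D cyclins are made when growth signals arrive, and bind Cdk4 or Cdk6 to begin the phosphorylation of the retinoblastoma protein. E cyclins then bind Cdk2, complete that step and start DNA replication. Adult LT-HSCs are mostly outside the cell cycle, and the level of Cdk6 is known to differ between human stem cells that leave quiescence slowly and those that leave it quickly.

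Library totals ran from 6444134 to 11101774 counts, and the 8 genes together took 0.0847% to 0.106% of a library. Emcn had 130, 327, 223 and 216 counts in WT and 1, 0 and 0 in KO, which matches the genotype labels. All 10 LT-HSC markers (among them Kit, Slamf1 and Procr) reached 1 CPM (a CPM value is a count relative to the TMM-scaled library total) in every library, with a summed level of 1299 CPM for wt_284, 1869 to 2148 CPM for the remaining WT mice and 1791 to 2114 CPM for KO. wt_284 thus had the lowest sum of stem cell markers. Procr, Ly6a and Hoxb5 were not lowest there, and the other stem cell markers were. wt_284 also stood apart in markers of other marrow cells. Its 17 myeloid markers summed to 15310 CPM. The same sum was 263 to 1336 CPM for the remaining WT mice and 218 to 718 CPM for KO, and 9 of the 17 reached 1 CPM in every library. Its 13 erythroid markers summed to 4494 CPM, against 660 to 1467 and 706 to 892 CPM, and its 12 early response genes, such as Fos and Egr1, to 1792 CPM, against 623 to 788 and 616 to 647 CPM. By the mean over the 7 libraries the most abundant markers of these lists were S100a9 (myeloid), Car2 (erythroid) and Jun (early response). S100a9 stood at 3497 CPM in wt_284 and 19.0 to 348 CPM elsewhere, and Jun at 539 CPM and 260 to 376 CPM. Car2 did not stand out there (632 CPM, against 370 to 648 CPM), unlike the globin Hba-a2 with 1843 CPM, against 80.7 to 336 CPM elsewhere. The B and T lymphoid sum was 12.2 to 167 CPM in WT and 15.4 to 21.5 CPM in KO, where Cd3e and Cd3g, which define T cells, were at 0, as they were in wt_312. Cd4, another gene of that list, stood at 2.24 to 4.2 CPM in KO and 0 to 6.55 CPM in WT. The mast cell and basophil sum was 8.86 to 89.6 CPM in WT and 0 to 8.09 CPM in KO, with Mcpt4, Tpsb2 and Cma1 at 0 in all libraries. Megakaryocyte sums (323 to 527 CPM in WT and 401 to 456 CPM in KO) overlapped between the groups. Endothelial and stromal sums (173 to 217 CPM in WT and 220 to 224 CPM in KO) did not, with every KO library slightly above every WT library. In bulk RNA, fewer cells of a type and less RNA per cell cannot be told apart. Differences between genotypes are therefore given with and without wt_284. The myeloid sums of wt_290 and wt_310 (1336 and 1331 CPM) were also above every KO sum, while wt_312 lay within the KO range. With all 7 libraries, the 17 myeloid, 13 erythroid and 11 early response markers tested all had negative log2 fold changes. Among all tested genes 52.4% did, and 0 of these markers were called. Leaving out wt_284 thus does not make the groups alike in myeloid markers.

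Per length, Ccnd2 and its kinase Cdk4 were the most abundant of the 8 transcripts, and Ccnd1 and Ccne1 the least. Levels between genes were compared as CPM per kb of annotated exon. In WT, Ccnd2 stood at 33.4 ± 3.59 CPM per kb (SD, n = 4) and Cdk4 at 28.6 ± 4.57, and their ranges overlapped. Cdk6 at 19.4 ± 3.32 lay below Cdk4 in every WT library and overlapped with Ccnd3 at 15.9 ± 4.96. Cdk2 followed at 9.40 ± 0.682, with no overlap with either neighbour in the order, and Ccne2 at 6.26 ± 1.49, Ccne1 at 6.11 ± 3.51 and Ccnd1 at 5.09 ± 0.588 overlapped. Without wt_284, Ccnd3 (13.5 ± 1.75, SD, n = 3) lay below Cdk6 (19.9 ± 3.83) with no overlap, and Ccne1 (4.36 ± 0.507) followed Ccnd1 (5.28 ± 0.556) in the last place. The KO libraries had the same first 6 places. There the ranges of Ccnd2 (36.1 ± 4.40, SD, n = 3), Cdk4 (30.4 ± 0.695) and Cdk6 (17.5 ± 1.59) were apart, those of Ccnd3 (11.7 ± 0.923), Cdk2 (10.4 ± 1.52), Ccne2 (7.83 ± 3.07) and Ccnd1 (4.99 ± 1.14) each overlapped with the next, and Ccne1 at 2.36 ± 0.793 lay below all of them. With the longest transcript as the length, Ccnd3 and Cdk6 changed places over the 7 libraries and the other 6 genes kept theirs. By mean CPM, Ccnd2 was above 97.7% and Cdk6 above 96.6% of the 15372 tested genes, whereas Ccne1 was above 39.4%.

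**Figure D1:**
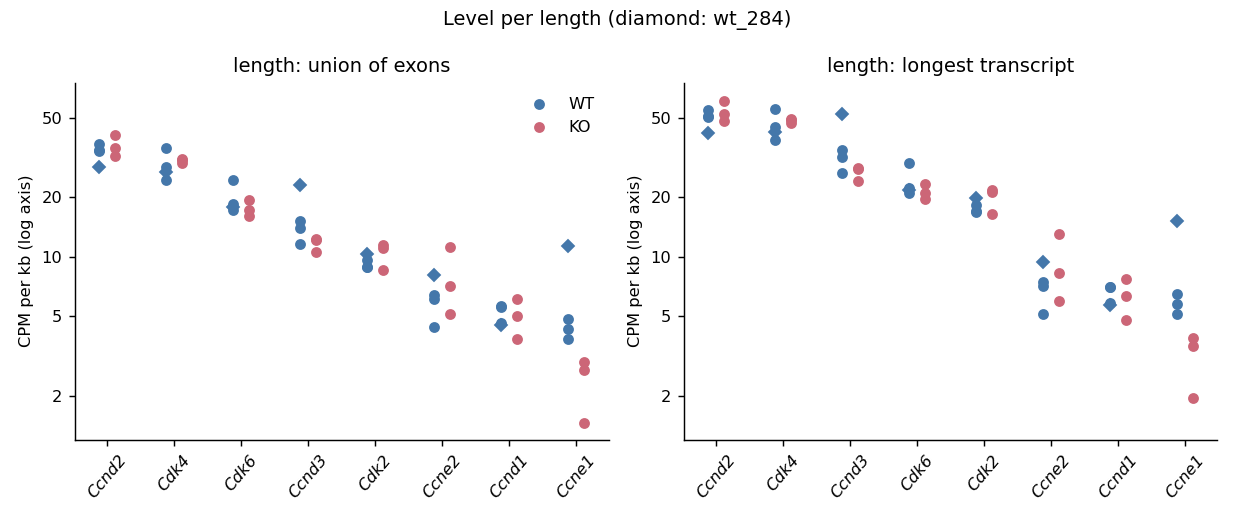
Level of each gene in each library, in CPM per kb on a log axis, ordered by the mean over the 7 libraries, with the union of exons (left) or the longest transcript (right) as length. Points are libraries, blue for WT and red for KO, and the diamond is wt_284. Ccnd2 and Cdk4 have the highest means in both panels, and the 3 KO values of Ccne1 are the lowest points of each panel.

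No cyclin or kinase of the set passed the test between genotypes. All 8 were tested, 0 were called at an adjusted p of 0.05 in edgeR's quasi-likelihood test, and the share of all 15372 tested genes called was 0.00651%, which is Emcn itself. At an unadjusted p of 0.05, 1 of the 8 (Ccne1) passed, against 3.27% of all genes, 1.99% with lower and 1.28% with higher values in KO. The log2 fold changes, KO minus WT, were positive for 4 genes and negative for 4, with a median of 0.03 against -0.02 over all genes, or -0.01 against 0.0010 without wt_284. For 7 of the 8 the 95% interval lay within 2-fold in either direction, as it did for 49.6% of all genes. Ccne1 was the exception, and without wt_284 the interval of Ccne2 (-0.21 to 1.14) also passed 2-fold. The p-values measure the spread between these mice.

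None of the 3 D cyclins separated the genotypes, and Ccnd3 varied most among WT mice. Ccnd2 (ENSMUSG00000000184.12, minus strand of chromosome 6, 127125162 to 127152193 in GRCm38) is the D cyclin known for its role in lymphoid cells and in the gonads. It stood at 266, 346, 324 and 320.4 CPM in WT and at 385, 303 and 331 CPM in KO. wt_284 was the lowest of all and ko_306 the highest, and the groups overlapped. The log2 fold change was 0.11 ± 0.14 (SE), with a 95% interval from -0.20 to 0.42, and 0.04 (-0.25 to 0.34) without wt_284.

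Ccnd3 (ENSMUSG00000034165.16, plus strand of chromosome 17, 47505051 to 47599691), a D cyclin needed for thymocyte expansion and for the divisions of erythroid precursors, stood at 202, 122, 132 and 102 CPM in WT and at 107, 93.1 and 107 CPM in KO. wt_284 was 1.70 times the mean of the other WT libraries, while wt_312 lay within the KO range. The coefficient of variation was 31.2% in WT and 7.91% in KO. The log2 fold change was -0.45 ± 0.21 (SE), with a 95% interval from -0.91 to 0.02 and an unadjusted p of 0.0578 in edgeR. Without wt_284 it was -0.21 (-0.55 to 0.13). Fitted beside the level of myeloid markers, it was 0.03. That level, a mean of log2 CPM, was 8.09, 4.892, 4.882 and 2.265 in WT and 3.365, 2.028 and 1.666 in KO. It was mostly higher in WT and highest in wt_284. With 7 libraries, myeloid level and genotype therefore cannot be fully told apart, here or wherever this level is fitted below.

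Ccnd1 (ENSMUSG00000070348.5, minus strand of chromosome 7, 144929931 to 144939925), the D cyclin of many epithelial tissues, was the scarcest of the 3. It stood at 21.3, 26.4, 26.3 and 21.8 CPM in WT and at 28.8, 18.0 and 23.7 CPM in KO. The KO libraries held both the highest and the lowest value. The log2 fold change was -0.03 (-0.58 to 0.53), and -0.07 (-0.66 to 0.51) without wt_284.

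**Figure D2:**
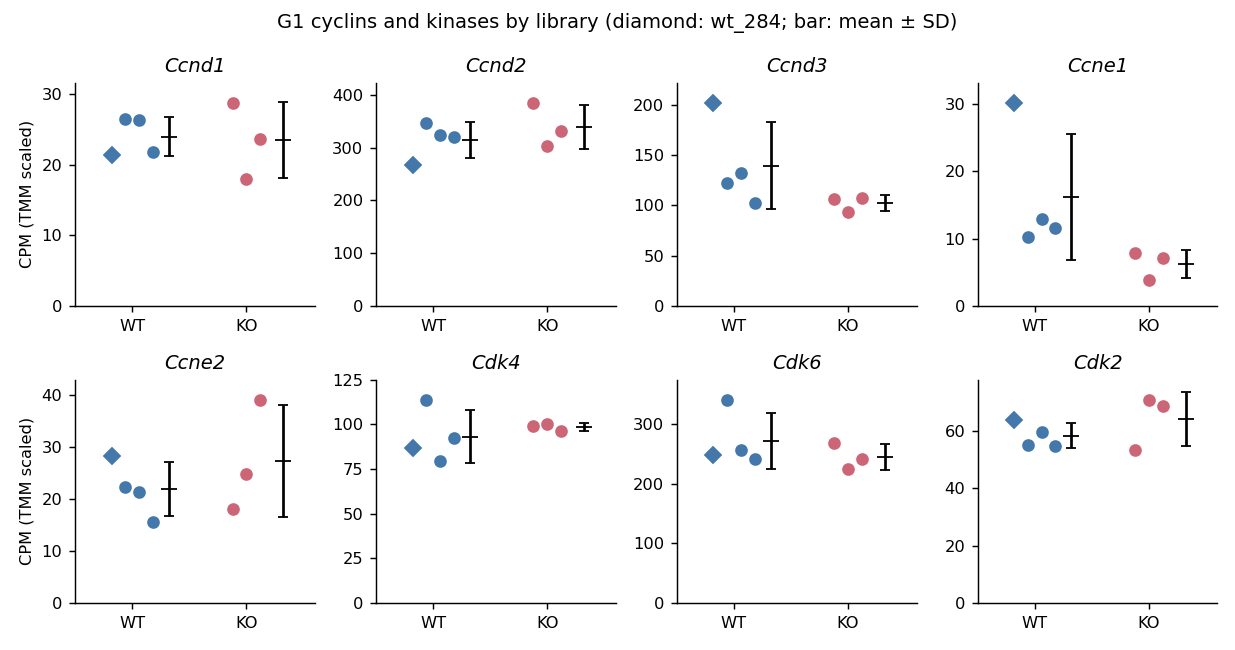
CPM of the 8 genes in each library, with a linear axis from 0 for each gene. Blue points are WT, red points KO, the diamond is wt_284, and the bar beside each group is its mean ± SD (n = 4 and 3). Ccne1 is the panel in which the groups do not overlap, and wt_284 lies far above the other WT libraries for Ccne1 and Ccnd3.

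Ccne1 had the lowest KO values relative to WT. Ccne1 (ENSMUSG00000002068.16, minus strand of chromosome 7, 38097984 to 38107534) encodes cyclin E1, the partner of Cdk2 at the start of S phase, and is itself a known target of E2F factors. Its counts were 249, 109, 85 and 90 in WT and 91, 26 and 56 in KO, where 26 counts have an exact Poisson 95% interval of 17 to 38.1 that covers counting error alone. In CPM these were 30.2, 10.3, 13.0 and 11.6 in WT and 7.84, 3.88 and 7.13 in KO. Every KO library was below every WT library, the only gap between the groups among the 8. Such a gap was found for 4.86% of all tested genes, and for 2.43% in this direction. The log2 fold change was -1.36 ± 0.46 (SE), with a 95% interval from -2.36 to -0.36, an unadjusted p of 0.0116 and an adjusted p of 0.992 in edgeR.

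wt_284 was 2.60 times the mean of the other WT libraries for Ccne1. Without it the log2 fold change was -0.87 (-1.84 to 0.09) with an unadjusted p of 0.0715 in edgeR. Fitted beside the level of myeloid markers, which cannot be fully told apart from genotype, it was -0.60. In wt_312, Ccne1 stood at 11.6 CPM, against a highest KO value of 7.84 CPM. The myeloid and erythroid sums of wt_312 were 263 and 660 CPM, against 218 to 718 and 706 to 892 CPM in KO. Single markers did not all follow these sums. Car2, the most abundant erythroid marker, was lower there (370 CPM, against 470 to 575 CPM in KO). Hbb-bt (62.8, against 27.7 to 49.0 CPM) and the myeloid Mpo (27.2, against 5.42 to 8.95 CPM) were higher. Epor (9.63, against 2.24 to 5.99 CPM), Irf8 (12.3, against 3.57 to 6.26 CPM) and Ly6c2 (2.95, against 0 to 1.98 CPM) were also higher. The remaining markers in these sums lay within or below the KO values. What part these other cells have in the Ccne1 values was not tested.

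Ccne2 (ENSMUSG00000028212.16, plus strand of chromosome 4, 11191351 to 11204779), which encodes the second E cyclin, stood at 28.2, 22.4, 21.4 and 15.5 CPM in WT and at 18.1, 24.9 and 39.1 CPM in KO. ko_320 was the highest library and wt_312 the lowest, so that the groups overlapped. The log2 fold change was 0.32 (-0.35 to 0.99), or 0.47 (-0.21 to 1.14) without wt_284 and -0.01 without ko_320.

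**Figure D3:**
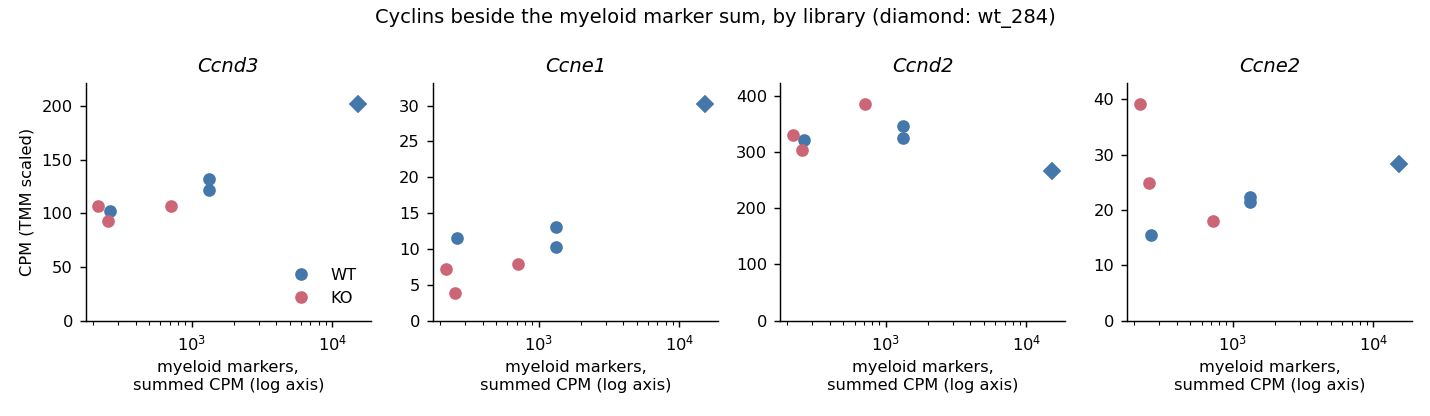
CPM of 4 cyclins (y axis, from 0) against the summed CPM of the myeloid markers (x axis, log scale) in each library, blue for WT, red for KO, diamond for wt_284. wt_284 lies apart at 15310 CPM of myeloid markers, with the highest Ccnd3 and Ccne1 and the lowest Ccnd2.

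None of the 3 kinases separated the genotypes. Cdk4 (ENSMUSG00000006728.12, plus strand of chromosome 10, 127063534 to 127067920), a partner of the D cyclins, stood at 86.7, 114, 79.3 and 92.2 CPM in WT and at 99.4, 100.5 and 96.2 CPM in KO. The 3 KO libraries lay within the WT range and varied by 2.29% (coefficient of variation). Its log2 fold change was 0.08 (-0.27 to 0.44), or 0.06 (-0.30 to 0.42) without wt_284.

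Cdk6 (ENSMUSG00000040274.11, plus strand of chromosome 5, 3341485 to 3531008), the other D cyclin partner, stood at 249, 340.3, 257 and 240.4 CPM in WT and at 269, 225 and 241 CPM in KO. wt_290 was above all other libraries, and the other WT values overlapped with KO. The log2 fold change was -0.15 (-0.49 to 0.19), or -0.19 (-0.52 to 0.15) without wt_284.

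Cdk2 (ENSMUSG00000025358.16, minus strand of chromosome 10, 128697939 to 128705031), the kinase of the E cyclins, stood at 64.0, 55.3, 59.6 and 55.0 CPM in WT and at 53.6, 71.0 and 68.7 CPM in KO. ko_306 was the lowest library and the other KO libraries the highest. Its log2 fold change was 0.14 (-0.24 to 0.52), or 0.19 (-0.21 to 0.58) without wt_284.

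**Figure D4:**
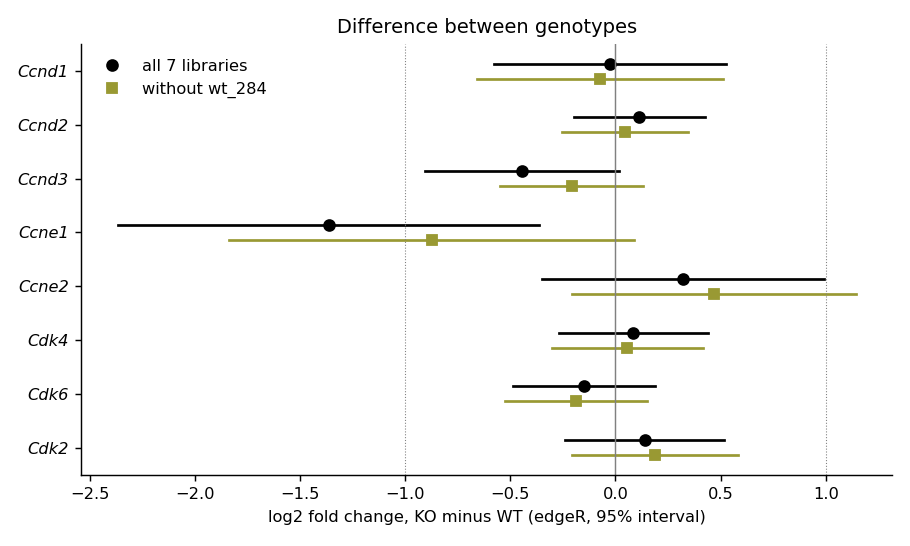
log2 fold change, KO minus WT, of the 8 genes with 95% intervals from edgeR, with all 7 libraries (black circles) and without wt_284 (olive squares). Dotted lines mark 2-fold. The interval of Ccne1 lies below 0 with all libraries and reaches 0.09 without wt_284, and the intervals of the other 7 genes cross 0 in both fits.

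Use of the paralogs was compared as the share of each gene in its family's reads per kb, within a library. The table gives 1 value per gene, so the transcripts of a gene, 3 to 21 of which are annotated for these genes, cannot be told apart. With the union of exons as length, Ccnd2 was the main D cyclin in every library. With the longest transcript, Ccnd3 led in wt_284 (52.3%, against 42.0% for Ccnd2) and Ccnd2 led in the other libraries. By the union of exons, the share of Ccnd2 was 50.7%, 65.3%, 62.5% and 67.7% in WT and 69.1%, 69.1% and 67.1% in KO. The lowest share was that of wt_284, and wt_312 lay within the KO range. The mean was 61.6% ± 7.56 for WT (SD, n = 4) and 68.4% ± 1.18 for KO (SD, n = 3), a difference of 6.86 points (two-sided exact permutation test, p = 0.143, adjusted over 5 shares 0.214), or 3.24 points without wt_284. The share of Ccnd3 was 41.2% for wt_284, 23.1% to 27.4% for the remaining WT and 20.6% to 23.4% for KO (exact permutation p = 0.171, adjusted 0.214), and the difference of -6.88 points became -2.84 points without wt_284. Ccnd1 made up 8.11% to 10.1% in WT and 8.21% to 10.3% in KO, a difference of 0.0147 points (exact permutation p = 1, adjusted 1), or -0.402 points without wt_284.

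The balance between the E cyclins differed most. Ccne1 made up 58.4%, 37.7%, 44.4% and 49.4% of E cyclin reads per kb in WT and 36.3%, 17.0% and 19.3% in KO. Each KO share was below each WT share, although wt_290 (95% Wilson interval from 32.5% to 43.1%) and ko_306 (30.8% to 42.1%) overlapped in counting error. The mean was 47.5% ± 8.74 for WT (SD, n = 4) and 24.2% ± 10.5 for KO (SD, n = 3), a difference of -23.3 points with p = 0.0286 in the two-sided exact permutation test, the smallest p that 4 against 3 libraries allow, and 0.143 adjusted over the 5 shares. In plain counts the exact permutation p was 0.0571. Without wt_284 the difference was -19.6 points (exact permutation p = 0.10, the smallest that 3 against 3 allow). The direction follows the separate values above, with the KO values of Ccne1 below those of WT and those of Ccne2 overlapping.

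Cdk4 gave more reads per kb than Cdk6 in every library. The share of Cdk6 among both was 40.0%, 41.0%, 42.9% and 37.7% in WT and 38.6%, 34.2% and 36.8% in KO. ko_306 lay above wt_312, so the groups overlapped. The means were 40.4% ± 2.16 (SD, n = 4) and 36.5% ± 2.20 (SD, n = 3), with an exact permutation p of 0.0857, or 0.214 adjusted. The difference was -3.88 points, or -4.03 points without wt_284. In plain counts, with no division by length, Cdk6 made up 69.1% to 76.4% of both, as its annotated exons cover 13989 bases against 3249 for Cdk4. Counting intervals (95% Wilson) reached at most 6.77 points to a side for the Ccne1 share and 2.43 points for the Cdk6 share, and at most 1.82 points for the D cyclins.

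**Figure D5:**
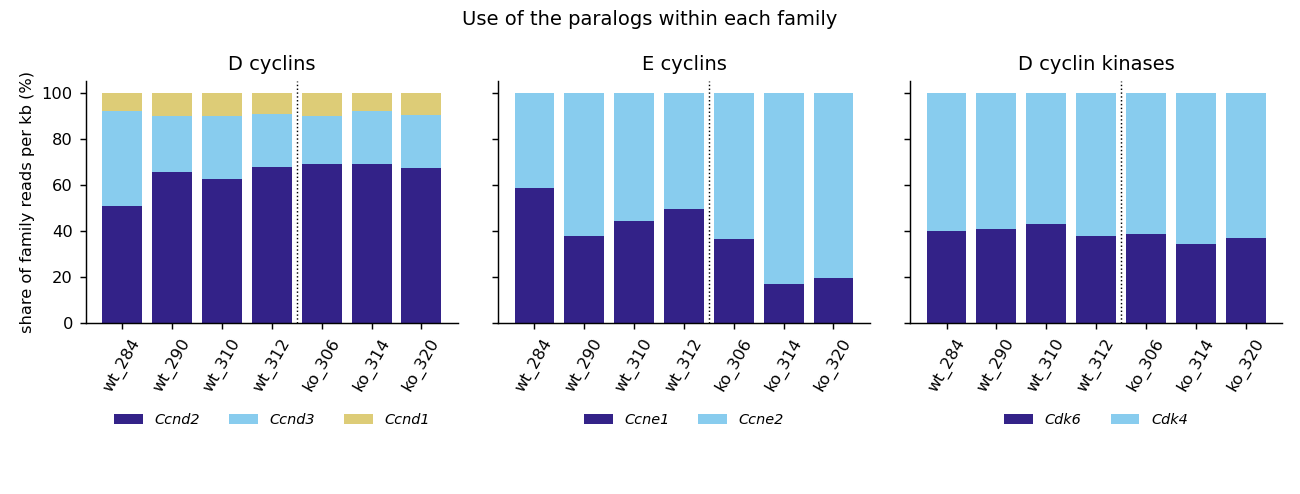
Share of each gene in its family's reads per kb (%, stacked to 100) in each library, WT left and KO right of the dotted line, for the D cyclins, the E cyclins and the D cyclin kinases. The length is the union of exons. The Ccne1 share is 37.7% to 58.4% in WT and 17.0% to 36.3% in KO, while Ccnd2 leads the D cyclins in all 7 libraries by this length.

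The sequence upstream of a gene is shown for Cdk4, the more abundant D cyclin kinase per length, and for Ccne1, the cyclin with the largest difference. RefSeq (GRCm38.p6) gave promoter windows for 5 of the 8 genes, Ccnd3 (at 2 starts), Ccne1, Cdk2, Cdk4 and Cdk6. The 250 bases before each start were searched on both strands for CACGTG, the E-box bound by MYC and related factors, which reads the same on both strands, and for GCGGGAA, a form of the E2F site, with TTCCCGC as its reverse. CACGTG was found 4 times before Cdk4, once before Cdk6 and not in the other windows. GCGGGAA was found at 2 places before Cdk2 and not in the other windows. Of 32851 promoters of the same length in the table, 6.02% held CACGTG, 0.0213% held it 4 or more times, and 3.82% held GCGGGAA; the number 4 was taken from Cdk4. A match is not evidence of binding. The stretches outside annotated exons are printed 5′ to 3′ on the strand of the gene, with CACGTG in capitals, at chr10:127063285-127063533 (plus strand) and chr7:38107535-38107740 (minus strand).
Cdk4: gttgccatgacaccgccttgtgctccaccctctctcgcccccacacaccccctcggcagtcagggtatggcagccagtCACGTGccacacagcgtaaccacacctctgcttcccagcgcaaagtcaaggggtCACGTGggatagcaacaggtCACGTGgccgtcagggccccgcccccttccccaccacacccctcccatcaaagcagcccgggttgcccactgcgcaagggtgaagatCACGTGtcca
Ccne1: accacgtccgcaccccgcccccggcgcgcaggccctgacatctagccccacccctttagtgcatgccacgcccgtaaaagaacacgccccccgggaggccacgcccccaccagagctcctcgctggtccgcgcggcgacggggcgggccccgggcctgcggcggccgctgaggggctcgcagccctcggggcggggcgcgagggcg

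Several of the 8 genes overlap a gene on the other strand in their exons. Ccne2 overlaps Ints8 (256 to 536 counts), Cdk4 overlaps Tspan31 (109 to 210), Ccnd3 overlaps Bysl (63 to 225), Ccnd1 overlaps LTO1 (105 to 332) and Cdk2 overlaps Pmel (0 to 10). Ccnd2 and Cdk6 overlap antisense genes that held at most 3 counts. The kit marks strand, but no source used here states whether the counting used it. If it did not, reads of these pairs cannot be told apart. Ccne1 had no such neighbour, and the pseudogene Ccnd3-ps held at most 1 count.

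Around the cyclins, no gene of the pathway lists passed the test either. Over all tested genes 52.4% had negative log2 fold changes, or 49.9% without wt_284, which is the background for the sign counts that follow. Among 5 tested CDK inhibitors, which restrain these kinases, 0 were called, all 5 had negative values with and without wt_284, and the median was -0.56, or -0.27 without it, against -0.02 over all genes. Cdkn1b (p27), which restrains the cyclin E kinase, had -0.38 ± 0.20 (SE), or -0.24 without wt_284, with every KO library below every WT library, as for 2.43% of all genes. Cdkn1a (p21) had -2.08 ± 1.08, or -1.20 without wt_284. Its level was low, at 8.24 CPM for wt_284, 0.764 to 3.60 CPM for the remaining WT and 0.127 to 1.38 CPM for KO. Cdkn2c (p18) had -0.83 ± 0.49, or -0.56 without wt_284. Pocket proteins are substrates of these kinases and hold some of the E2F factors. Of 13 genes of pocket proteins, E2F factors and their partners, 0 were called, with 3 positive and 10 negative values and a median of -0.10. Without wt_284 there were 7 positive and 6 negative values and a median of 0.00045. E2f2 had -2.02 ± 0.93, at 110 CPM for wt_284, 10.5 to 23.4 CPM for the remaining WT and 5.22 to 14.5 CPM for KO, and its log2 fold change without wt_284 was -0.86. Rb1 had -0.53 ± 0.27, or -0.23 without wt_284, and E2f4 had -0.43 ± 0.26, or -0.19. Fitted beside the myeloid marker level, E2f2 and Rb1 stood at 0.06 and 0.02.

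Of 8 kinases and phosphatases that switch CDKs on or off, 0 were called, with 4 positive and 4 negative values and a median of 0.0038, or 0.01 without wt_284 with the same sign counts. The phosphatases Cdc25c and Cdc25b had -1.20 ± 0.54 (SE) and -1.11 ± 0.50, or -0.89 and -0.50 without wt_284. The inhibitory kinase Pkmyt1 had -0.65 ± 0.40, or -0.32. Of 13 genes of G1 cyclin turnover, 0 were called, with 6 positive and 7 negative values and a median of -0.0017, or 9 and 4 and a median of 0.10 without wt_284. Cul1, the scaffold of the ligase that degrades cyclin E, had 0.30 ± 0.15, or 0.35 without wt_284, with every KO library above every WT library (88.3 to 107 CPM in WT, 108 to 134 CPM in KO), as 2.43% of all genes did in that direction. Rbx1, the RING subunit of that ligase, had 0.32 ± 0.26, or 0.36 without wt_284 and -0.045 without ko_320, where it stood at 65.6 CPM against 33.7 and 35.2 CPM in the other KO libraries. Ambra1, the adaptor that directs the breakdown of D cyclins, had -0.21 ± 0.17, or -0.25 without wt_284.

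Among 24 E2F target genes of S-phase entry 0 were called, 4 had positive and 20 negative values, and the median was -0.09. Without wt_284 there were 9 positive and 15 negative values and the median was -0.02. Gins2, of the replicative helicase, had 0.50 ± 0.27 (SE), or 0.52 without wt_284, and Cdt1, a licensing factor, -0.53 ± 0.32, or -0.36. Rrm2, of ribonucleotide reductase, had -0.95 ± 0.55, or -0.39 without wt_284, at 116 CPM for wt_284, 19.4 to 53.2 CPM for the remaining WT and 23.9 to 34.1 CPM for KO. Fitted beside the myeloid marker level, Rrm2 stood at 0.40. Of 22 tested other cyclins and cell-cycle kinases 0 were called, with 12 positive and 10 negative values and a median of 0.07, or 16 and 6 and a median of 0.08 without wt_284. Cdk12, a kinase of RNA polymerase II, had -0.21 ± 0.13, or -0.17 without wt_284, with every KO library below every WT library, as for 2.43% of all genes. Ccnb2, a mitotic cyclin, had -0.46 ± 0.30, or -0.27, and Cdk14 had 0.38 ± 0.26, or 0.22. All the genes named from these 6 lists had an adjusted p of 0.992 in edgeR.

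The 8 genes did not share 1 pattern over the libraries. Likeness was measured as the root mean square difference of log2 CPM over the 7 libraries, each gene centred on its own mean, so that 0 is an identical profile. It is not scaled to the spread of a gene, so genes that vary little come out close to each other. Among the 8, Ccnd1 and Ccnd2 were most alike (0.142), followed by Cdk4 with Ccnd2 and with Cdk6 (0.162 each). Ccne1 and Ccne2 were the least alike pair (0.926). Without wt_284 the first and last pairs were the same, at 0.141 and 0.824. Among 9270 protein-coding genes with a mean of at least 10 CPM, the nearest to Ccnd2 were Peak1 (0.0477) and Vps13a (0.0614), and to Ccnd1 Adck5 (0.0576) and Abl2 (0.0681). Nearest to Ccnd3 were Fbxo33 and Ftl1 (0.0741 each), to Cdk4 Ipo7 (0.0592) and Clpb (0.0682), to Cdk6 Kars (0.0662) and Cd93 (0.0749), to Cdk2 Timm44 (0.0604) and Gpbp1l1 (0.0616), and to Ccne2 Spdl1 (0.0673) and Zfp593 (0.0982). Ccne1 had no neighbour as close by this measure, with Blvrb, a biliverdin reductase, at 0.182 and Abcb10, a mitochondrial transporter, at 0.239. Both of these were highest in wt_284 (76.6 and 93.2 CPM). Ccne1 also varied most of the 8, with an SD of log2 CPM of 0.887, against 0.163 to 0.431 for the others. Its distances are therefore not comparable with those of genes that vary less.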

How the data were processed

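Per the labels' protocols, RNA of sorted cells went through a SMARTer stranded kit for very small inputs and paired-end Illumina sequencing. The authors deposited one table of estimated counts (whole numbers per gene, not scaled to depth). Cutadapt and Salmon are named in the submitters' processing notes. Not given in the sources used here were versions, annotation, strand setting and rounding. The 7 value columns each matched a library by name and 0 were left over.

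Counts were used as deposited. Genes were filtered with filterByExpr and compared with edgeR 4.0.16 (R 4.3.3; TMM factors, the quasi-likelihood test with robust fitting, differences as KO minus WT, p adjusted by Benjamini-Hochberg over 15372 genes, threshold 0.05). Standard errors are the log2 fold change over the square root of F. Lengths and positions came from GENCODE M21 (GRCm38), which held all 8 identifiers with the same version. Shares were tested by exact permutation, two-sided, of the mean difference over 35 splits. log2 CPM used a prior count of 2. The fit was tested on simulated counts. The labels name no litter or pairing, so none was fitted. No library was a copy of another (chi-square over its degrees of freedom 7.40 or more for each pair).

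The 8 genes, the lists and the tests were chosen with earlier results of these data known. Named genes are the 8, the 3 of each pathway list with the smallest p, the 2 nearest in profile to each of the 8 with at least 10 CPM, the most abundant marker of each list (Cd79b, Prss34 and Tie1 led the lymphoid, mast cell and endothelial lists; 1 leader is not reported here) and Emcn. Markers named beyond that were chosen after their values were seen. Alternatives were DESeq2 1.42.0, limma-voom (limma 3.58.1) with quality weights, RLE factors, no filter, 1 CPM in 3 libraries, the myeloid level as a covariate, mice numbered above 300, another length, and leaving out each mouse.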

Additional observations from a re-analysis of the deposited data

Results flagged for a closer look

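In 7 of 40 sets of 4 WT values examined, 1 library lay far from the other 3 (a gap above 0.829 of the range, which chance gives in about 1 of 20 sets), and 6 of these 7 were wt_284. It held Ccne1 at 30.2 CPM (next highest WT value 13.0), E2f2 at 110 CPM (next 23.4), myeloid markers at 15310 CPM (next 1336), lymphoid markers at 167 CPM (next 24.5) and early response genes at 1792 CPM (next 788). It was lowest for endothelial and stromal markers, at 173 CPM (next lowest 212). Cdk6 in wt_290 was the other, at 340.3 CPM (next highest 257). The values of 1 library are not independent of each other.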

How the results depend on the processing

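None of the 8 genes was called by any alternative tried, and the smallest adjusted p of Ccne1 among them was 0.269 (edgeR with no filter), with a range up to 1.00. The direction of Ccne1, Ccnd3, Cdk2 and Cdk6 was kept in each alternative except Ccnd3 with the myeloid level as a covariate (0.031). That covariate also turned Ccnd1 to 0.013, E2f2 to 0.058, Rb1 to 0.024, Cdc25b to 0.050, Pkmyt1 to 0.045, Cdt1 to 0.054 and Rrm2 to 0.40, and limma-voom put Cdk4 at -0.00068. The cause was not tested. Leaving out 1 mouse at a time gave log2 fold changes from -0.22 to 0.14 for Ccnd1 (positive without wt_290, wt_310 or ko_314), from -0.0072 (without ko_306) to 0.20 for Ccnd2, and from -0.0090 to 0.53 for Ccne2 and -0.045 to 0.47 for Rbx1 (negative without ko_320). Differences of the Ccnd1 share ran from -0.458 to 0.599 points (negative without wt_284, wt_312, ko_306 or ko_320). That share turned to -0.0146 points with plain counts and -0.299 points with mice above 300. Shares of Ccnd2, Ccnd3, Ccne1 and Cdk6 kept their direction in each alternative, and without wt_284 those of Ccnd2 and Ccnd3 shrank to 3.24 and -2.84 points. Over all genes 1 was called, against 13 with DESeq2, 0 with limma-voom, 81 with no filter, 2 with the myeloid covariate, 7 with mice above 300 and 1 to 3 with 1 mouse left out (3 without wt_284). With the longest transcript 6 of 8 genes kept their place in the level order. No paired analysis was possible because the labels do not name the litters.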
